A study of Homo sapiens with 6 samples.

Results

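ATF4 and 9 regulators that act around it in the integrated stress response, namely ATF3, ATF5, CEBPG, DDIT3, TRIB3, CHAC1, SESN2, DDIT4 and PPP1R15A, were followed in RNA-seq libraries of HEK293 cells carrying one of 2 mutant forms of the focal adhesion protein tensin 2. These 10 genes were chosen by their symbols in a table of 58735 genes, and they were selected on the FPKM values reported here, by line and by library number. Their values between the lines are therefore a description and not a test. All 10 had a mean of at least 1 FPKM (fragments counted per gene, scaled to gene length and to library size), as did 12833 genes in all.

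The cells were HEK293, a human embryonic kidney line. In the Y483E line, stably expressed tensin 2 had glutamate in place of a tyrosine, a substitution used to resemble a phosphorylated tyrosine. In the Y483F line, the same tyrosine was replaced by phenylalanine, which cannot be phosphorylated. Each line gave 3 libraries of poly-A RNA, which the submitters numbered 1, 4 and 5 without saying what the numbers stand for. The design text names 2 cell lines, with no statement on clones. If each form was carried by 1 line, what the substitution did and what the line itself brought cannot be told apart. The titles call the replicates biological without naming separate cultures, so p-values measure the spread between these libraries.

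The integrated stress response starts when stress-sensing kinases phosphorylate the translation factor eIF2. General protein synthesis then falls, while the ATF4 messenger RNA, through open reading frames upstream of its coding sequence, is translated more. ATF4 is a basic leucine zipper (bZIP) factor that pairs with C/EBP proteins and switches on genes of amino acid supply, of redox balance and, when stress lasts, of cell death. RNA-seq measures the transcripts of these regulators and not the translation step.

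The promoters of the members were searched for the core of the C/EBP-ATF response element, TGATGNAA on either strand, in windows of 250 bases before to 50 after each RefSeq gene start (GRCh38.p14). It was present at 3 of the 10 members, CHAC1, CEBPG and ATF3, and at 4.457% of all 27305 genes with such a window. A gene can have several windows, and counted by window it was in 3 of 18 of the members and in 3.617% of all 35116. The full cAMP response element, TGACGTCA, was present at 1 member, PPP1R15A, and at 2.249% of genes. The whole CHAC1 window is given because CHAC1 showed the largest ratio between the lines among the members, and the surroundings of the matches at CEBPG, ATF3 and PPP1R15A are given for comparison. Capitals mark the matched element.
CHAC1: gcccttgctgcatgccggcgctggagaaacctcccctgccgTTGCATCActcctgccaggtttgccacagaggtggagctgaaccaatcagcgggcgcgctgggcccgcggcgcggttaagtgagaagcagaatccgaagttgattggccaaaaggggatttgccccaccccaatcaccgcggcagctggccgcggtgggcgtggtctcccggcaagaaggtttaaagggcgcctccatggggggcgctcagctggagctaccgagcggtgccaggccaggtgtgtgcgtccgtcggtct
CEBPG: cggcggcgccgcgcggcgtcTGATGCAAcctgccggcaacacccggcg
ATF3: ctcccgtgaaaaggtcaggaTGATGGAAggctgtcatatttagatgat
PPP1R15A: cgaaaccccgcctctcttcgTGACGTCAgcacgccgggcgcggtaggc
The CHAC1 window is chr15:40953221-40953520 on the plus strand, and its match lies on the opposite strand with the first base at position -209 from the gene start. The CEBPG stretch is chr19:33374051-33374098 with the match at -42, and the ATF3 stretch is chr1:212565196-212565243 with the match at -191, both on the plus strand. The PPP1R15A stretch is chr19:48872343-48872390 on the plus strand, with the match at -58. The CCAAT box, CCAAT on either strand, was present at 6 members, CHAC1, CEBPG, ATF3, DDIT3, DDIT4 and SESN2, and at 39.722% of genes. The shorter element TGACG, which the full element contains on both strands, was present at ATF4, ATF5 and PPP1R15A and at 28.423% of genes. The windows of the other 7 members held no TGATGNAA, which says only that these letters are not in those windows. These matches are letters in a window and not measured binding.

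Reads per library summed to between 17919298 and 23284592 in Y483E and between 17204498 and 20274593 in Y483F. The HEK293 markers IRS4, NEFL and VIM were present in every library, IRS4 at 151.8 to 172.9 FPKM, whereas PAX2, LHX1 and NEFM stood at or below 1.344 FPKM. Markers of blood, PTPRC and HBB, had 0 reads, which allows up to 3 reads in a library. DCN and KRT5 reached at most 0.01731 FPKM, ALB at most 0.04938 FPKM and COL1A1 at most 0.7758 FPKM. TNS2, whose reads can come from the construct and from the cells' own gene, stood at 0.7531 to 1.046 FPKM in Y483E and 1.068 to 1.161 FPKM in Y483F. In bulk RNA, fewer cells of a kind and less RNA per cell cannot be told apart.

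ATF4 was by far the most abundant of the 10 transcripts per length, with a mean of 291.2 FPKM over the 6 libraries. CEBPG followed at 59.6 FPKM, then SESN2 at 30.53 FPKM and DDIT4 at 26.66 FPKM. PPP1R15A at 17.59 FPKM, ATF5 at 17.19 FPKM, ATF3 at 14.36 FPKM and TRIB3 at 12.66 FPKM formed a middle group. DDIT3 at 6.611 FPKM and CHAC1 at 4.945 FPKM were the lowest. ATF4 and CEBPG stood apart from their neighbours in this order in every library, while the ranges over the 6 libraries overlapped for SESN2 and DDIT4, for each neighbouring pair from PPP1R15A down to TRIB3, and for DDIT3 and CHAC1. Even the lowest members were read well above the floor of 3 reads, with 114 to 389 reads per library for CHAC1 and 124 to 236 for DDIT3.

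The common pattern was a higher level in the Y483E libraries numbered 4 and 5 than in the other 4 libraries. The Y483E library numbered 1 stood near the Y483F libraries. Of the 10 members, 8 had both of these Y483E libraries above all 4 others, ATF5 and PPP1R15A being the exceptions. Over all 12833 genes this held for 14.7%.

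**Figure D1:**
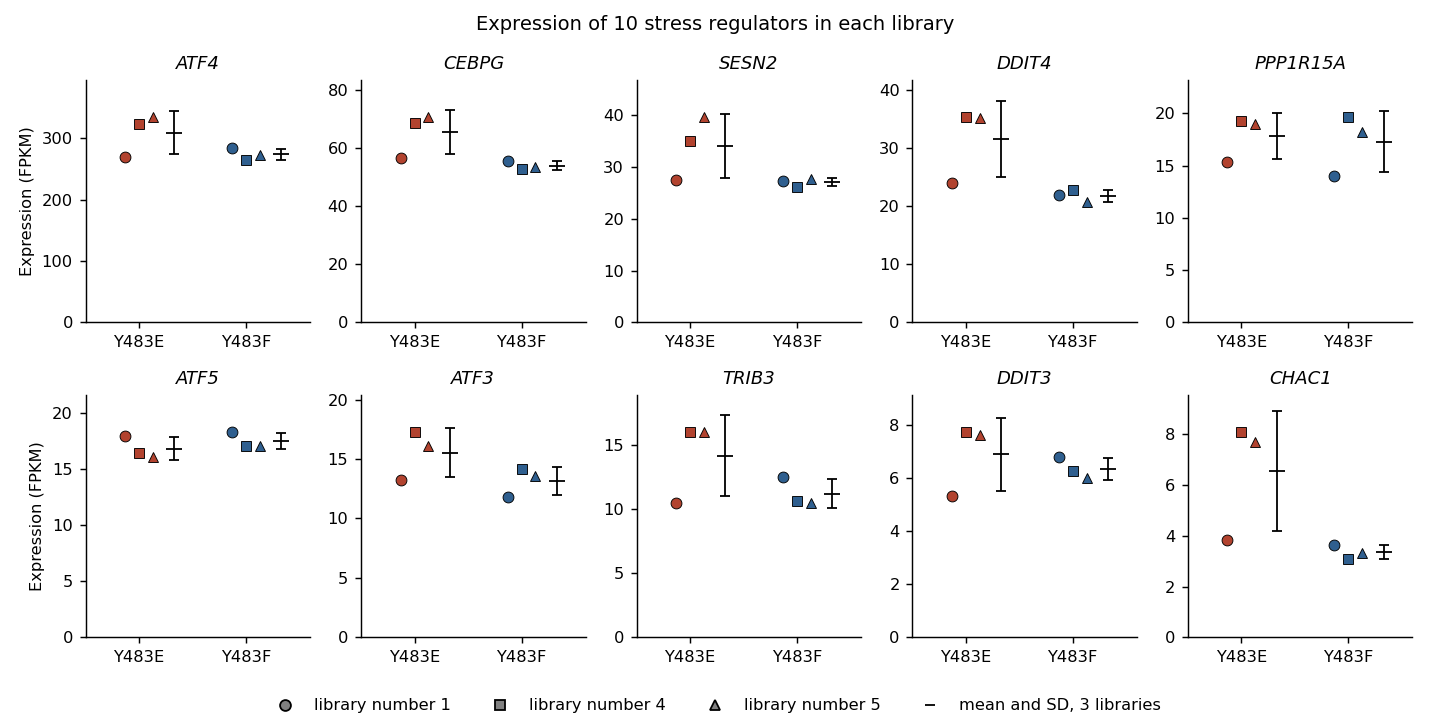
Expression in FPKM (vertical axes, from 0) of the 10 members in each library, Y483E left of Y483F, with circles, squares and triangles for the libraries numbered 1, 4 and 5, and bars for the mean and SD of 3 libraries. For CHAC1, the Y483E libraries numbered 4 and 5 sit at 8.107 and 7.699 FPKM, above the other 4 libraries at 3.079 to 3.831 FPKM, whereas ATF5 lies between 16.09 and 18.38 FPKM in all 6.

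ATF4 itself, on chromosome 22 (39519695 to 39522685, plus strand), had 269.6, 322.5 and 334.8 FPKM in Y483E libraries 1, 4 and 5, against 283.4, 264.7 and 272.1 FPKM in the Y483F libraries. The Y483E libraries numbered 4 and 5 were the highest of the 6, and library 1 lay inside the Y483F range. ATF4 averaged 308.9 ± 34.65 FPKM in Y483E and 273.4 ± 9.434 FPKM in Y483F (SD, n = 3 each). The log2 difference, Y483E minus Y483F on log2(FPKM + 1), was 0.17 (SE 0.08) over 6 libraries and 0.29 (SE 0.04) over the libraries numbered 4 and 5. With 11970 to 18904 reads per library, counting error was small beside these spreads. The processed copies of the gene drew few reads, 16 to 31 per library for ATF4P3, 0 or 1 for ATF4P4, and none for ATF4P1 and ATF4P2.

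Of the bZIP partners and relatives, CEBPG, ATF3 and DDIT3 were higher in both Y483E libraries numbered 4 and 5 than in the other 4 libraries, and ATF5 was not. CEBPG, a C/EBP protein that lacks a strong activation domain and forms dimers with ATF4, had 56.64, 68.53 and 70.68 FPKM in Y483E libraries 1, 4 and 5, against 55.62, 52.66 and 53.48 FPKM in Y483F. All 3 Y483E libraries lay above all 3 Y483F libraries, library 1 by about 1 FPKM. Its log2 difference was 0.27 (SE 0.08) over 6 libraries and 0.39 (SE 0.03) over numbers 4 and 5.

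ATF3, a stress-induced bZIP repressor, had 13.23, 17.30 and 16.09 FPKM in Y483E, against 11.84, 14.12 and 13.56 FPKM in Y483F, in libraries 1, 4 and 5. Each Y483E library was above the Y483F library of the same number, while the lines overlapped. Unlike at CEBPG, library 1 was the lowest in both lines. The log2 difference was 0.22 (SE 0.10) over 6 libraries and 0.25 (SE 0.05) over numbers 4 and 5.

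DDIT3, which encodes the factor CHOP that is tied to cell death under lasting stress, had 5.305, 7.744 and 7.598 FPKM in Y483E, against 6.790, 6.252 and 5.979 FPKM in Y483F. The Y483E library numbered 1 was the lowest of the 6 and the other Y483E libraries were the highest. The mean difference over 6 libraries was small, 0.09 (SE 0.13), against 0.29 (SE 0.05) over numbers 4 and 5 by limma. With only 124 to 236 reads per library, fits on the recovered reads gave wider errors for numbers 4 and 5. By edgeR the log2 difference was 0.325 (SE 0.125, adjusted p = 0.0972), and by DESeq2 0.328 (SE 0.221, adjusted p = 0.499). Of the 1307 exon bases of DDIT3, 355 are shared with MARS on the opposite strand, at 45.14 to 57.28 FPKM, and 58 with MBD6. The protocol names both directional and non-directional library making, so reads of DDIT3 and MARS cannot be told apart there. MARS itself had a log2 difference of 0.31 over numbers 4 and 5.

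ATF5, which like ATF4 is controlled through upstream reading frames, had 18.0, 16.46 and 16.09 FPKM in Y483E, against 18.38, 17.09 and 17.10 FPKM in Y483F. It was the only member with a negative mean difference, -0.05 (SE 0.06) over 6 libraries and -0.07 (SE 0.04) over numbers 4 and 5, and each Y483E library was slightly below its Y483F counterpart. ATF5 shares 626 of its 2954 exon bases with NUP62 on the opposite strand, at 22.65 to 25.77 FPKM.

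Among the targets that act back on the response or on metabolism, CHAC1 and TRIB3 showed larger ratios than ATF4. CHAC1, an enzyme that degrades glutathione, had 3.831, 8.107 and 7.699 FPKM in Y483E libraries 1, 4 and 5, against 3.632, 3.079 and 3.319 FPKM in Y483F. In the libraries numbered 4 and 5 the mean was 2.47 times that of Y483F, the largest ratio of the 10, and in library 1 the lines were close. Its log2 difference was 0.74 (SE 0.23) over 6 libraries, 17th from the top of the 12833 genes, and 1.08 (SE 0.06) over numbers 4 and 5, the 8th of the 12936 genes that averaged at least 1 FPKM in those 4 libraries.

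TRIB3, a pseudokinase that binds ATF4 and holds back its activity, had 10.47, 15.95 and 16.01 FPKM in Y483E, against 12.48, 10.62 and 10.46 FPKM in Y483F. As with DDIT3, the Y483E library numbered 1 lay below its Y483F counterpart, and the libraries numbered 4 and 5 were 1.516 times those of Y483F. The log2 difference was 0.29 (SE 0.16) over 6 libraries and 0.56 (SE 0.04) over numbers 4 and 5.

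PPP1R15A, or GADD34, brings protein phosphatase 1 to eIF2 and so ends the response. It had 15.35, 19.32 and 18.97 FPKM in Y483E, against 13.99, 19.68 and 18.24 FPKM in Y483F. The libraries numbered 4 and 5 did not separate the lines, with a log2 difference of 0.01 (SE 0.05). Library 1 was the lowest in both lines, as at ATF3.

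The members that restrain the growth kinase complex mTORC1 were DDIT4 and SESN2. Like ATF4, both had the Y483E libraries numbered 4 and 5 above the other 4 libraries, and their ratios were larger than that of ATF4. DDIT4, also known as REDD1, which acts through the TSC complex, had 24.05, 35.41 and 35.20 FPKM in Y483E libraries 1, 4 and 5, against 21.87, 22.74 and 20.68 FPKM in Y483F. All Y483E libraries were above all Y483F libraries. Its log2 difference was 0.50 (SE 0.14) over 6 libraries and 0.68 (SE 0.05) over numbers 4 and 5. Its antisense neighbour DDIT4-AS1, which covers 847 of its 2058 exon bases, had 0 FPKM in every library.

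SESN2, a leucine sensor that binds the GATOR2 complex, had 27.48, 35.01 and 39.68 FPKM in Y483E, against 27.21, 26.14 and 27.68 FPKM in Y483F. Library 1 of Y483E was within the Y483F range. The Y483E libraries numbered 4 and 5 exceeded it, with a log2 difference of 0.46 (SE 0.07), against 0.31 (SE 0.12) over all 6 libraries.

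Counted over the 10, 9 members had a positive log2 difference in the 6 libraries, and the median was 0.24 against 0.01 over all genes tested. Only CEBPG, CHAC1 and DDIT4 had every Y483E library above every Y483F library, an arrangement found in 9.72% of the 12833 genes. By limma on log2(FPKM + 1) with Benjamini-Hochberg adjustment at 0.05, 0 of the 10 were called, as were 0 of 12833 genes (0%). At an unadjusted p under 0.05, limma gave 4 members and 1566 genes. On whole reads recovered from the FPKM values, edgeR called 0 members and 7 of 15992 genes (0.0438%), and DESeq2 called 3 members, CEBPG, CHAC1 and DDIT4, and 142 of the 11014 genes to which it gave an adjusted p (1.29%). The authors' deposited table lists 1652 genes with an unadjusted p-value of at most 0.04999, and 7 of the members are in it, beside 11.1% of the 12833 genes above. The authors' deposited table gives an adjusted p-value under 0.05 to DDIT4, CHAC1 and CEBPG, with log2 fold changes of 0.54, 0.97 and 0.28. The authors' deposited table gives one to 126 genes in all, of which 122 are among the 12833 genes (0.951%).

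In the libraries numbered 4 and 5 the same 9 members were higher and the median log2 difference was 0.34, against 0.015 over all genes. Here limma called 7 members higher, namely ATF4, CEBPG, DDIT3, TRIB3, CHAC1, SESN2 and DDIT4, and 0 lower. Over 12936 genes, 2.57% were called higher and 2.88% lower. By edgeR 7 members were called higher and 0 lower, with ATF3 in place of DDIT3, beside 7.07% and 7.98% of 16308 genes. Because the members were selected on these values, their counts carry no evidence beyond the description. The limma calls rest on 2 libraries per line: without the Y483F library numbered 4, or without that numbered 5, 3 genes and 0 members were called, and without the Y483E library numbered 5, 120 genes and 4 members. Without the Y483E library numbered 4, 705 genes and 6 members were called.

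**Figure D2:**
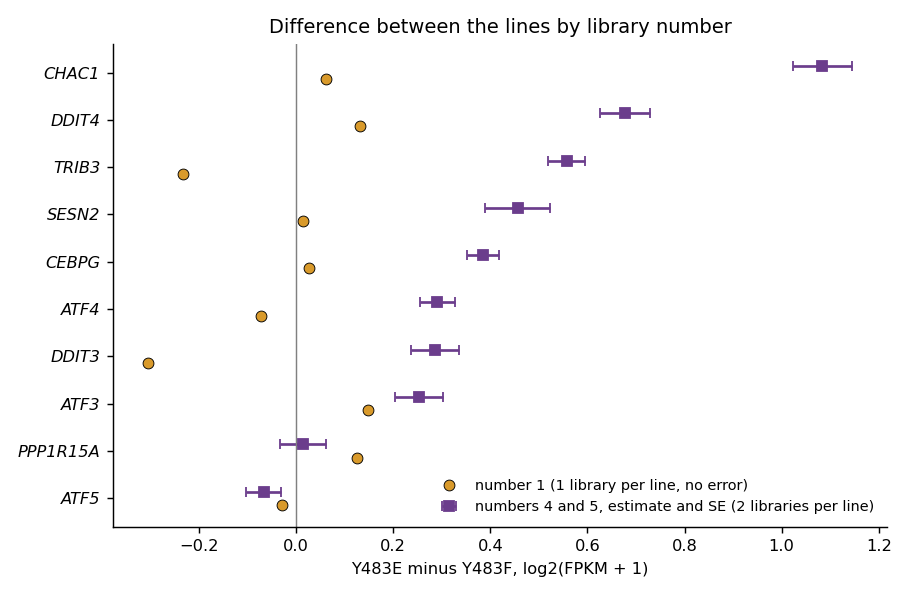
Difference between the lines, Y483E minus Y483F on log2(FPKM + 1) (horizontal axis), for each member (rows) in the libraries numbered 1 (circles, 1 library per line) and in those numbered 4 and 5 (squares, estimate and SE). At number 1 the differences lie between -0.305 and 0.149, and at numbers 4 and 5 between -0.067 and 1.084, with CHAC1 highest.

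At number 1 the members differed between the lines in no common direction, and 1 library per line gives no measure of error. The Y483E library was higher at 6 members and lower at 4, with a median difference of 0.02, against -0.004 over all genes tested. DDIT3 at -0.31 and TRIB3 at -0.23 were the lowest, and ATF3 at 0.15, DDIT4 at 0.13 and PPP1R15A at 0.13 the highest. Within Y483E, library 1 stood below the mean of libraries 4 and 5 at 9 of 10 members, with a median log2 difference of -0.37, against 0.01 over all genes. The gap was largest at CHAC1 (-0.88), TRIB3 (-0.57) and DDIT4 (-0.54), and it was positive at ATF5 (0.14). Within Y483F the median was 0.07, against 0.02 over all genes, and 8 members were positive. What the library numbers stand for, and whether RNA quality, depth or culture moved with them, was not tested.

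The interaction of line and library number asks whether the difference between the lines at number 1 departs from that at numbers 4 and 5. It leaves 2 residual degrees of freedom. Each line has 1 library at number 1, taken to scatter as much as the rest. The estimate was negative at 8 of 10 members, with a median of -0.40 against -0.02 over all genes. By limma 0 members and 8 of 12833 genes were called, 0.0312% lower and 0.0312% higher at number 1, with 7 members and 2039 genes at an unadjusted p under 0.05. By edgeR 6 members were called, all lower at number 1, namely ATF4, CEBPG, TRIB3, CHAC1, SESN2 and DDIT4. Over 15992 genes edgeR called 368, 0.688% lower and 1.61% higher. The members were selected on these values by line and number, with 1 library per line at number 1, so these calls restate the pattern that chose them and test nothing.

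Not all members shared one profile over the libraries. ATF3, though among the 8 members with the common pattern, and PPP1R15A were lowest at number 1 in both lines. That is 2 of 10 members, near the 15.1% of all genes with this arrangement. Genes of the immediate early response, which are induced quickly by serum or stress, showed the same arrangement at 9 of 15 tested members of a list, p53 targets at 6 of 16 and the list of other bZIP factors at 7 of 24. ZFP36, which destabilises messenger RNAs, had 3.700, 6.039 and 5.588 FPKM in Y483E libraries 1, 4 and 5, against 3.399, 7.522 and 7.237 FPKM in Y483F. The ATF4 targets of amino acid supply showed this arrangement at 0 of 26, and the other targets of ATF4 and DDIT3 at 6 of 22. Whether any of these lists bears on ATF3 or PPP1R15A was not tested.

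The transcripts most like ATF4 over the 6 libraries, among 7014 protein-coding genes averaging at least 5 FPKM, were GPC3 (Pearson r = 0.9984), HOXB9 (0.9956), RPL3 (0.9954), ASS1 (0.9943) and SLC1A4 (0.9943). These coefficients rest on 6 libraries that share line and library number, and the highest of many such values are close to 1 by selection. Only SLC1A4, a carrier of small neutral amino acids, is in the list of ATF4 targets of amino acid supply described below, and GPC3, HOXB9 and RPL3 ranked above it. ASS1 makes argininosuccinate in arginine synthesis. ASS1 had 21.49, 27.73 and 29.48 FPKM in Y483E, against 23.95, 21.41 and 21.79 FPKM in Y483F, so that its libraries stood in the same arrangement as those of ATF4. Among the profiles most like the mean of the 10 members were those of GRINA (0.9961), MIEN1 (0.9926) and MAP4 (0.992), on the same 6 libraries. GRINA had 23.52, 26.68 and 27.01 FPKM in Y483E, against 23.50, 23.73 and 23.30 FPKM in Y483F.

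The surroundings of ATF4 were described with lists of pathway genes, in the libraries numbered 4 and 5. The targets of amino acid supply had the highest median of the 9 lists. All 26 tested were higher in Y483E, limma called 21 of them higher and 0 lower, and the median log2 difference was 0.39. At number 1 the median of this list was -0.05. SLC6A9, a glycine transporter, had 7.197, 12.18 and 11.55 FPKM in Y483E libraries 1, 4 and 5, against 6.428, 5.021 and 5.335 FPKM in Y483F. Its log2 difference over numbers 4 and 5 was 1.06 (SE 0.05, limma adjusted p = 0.00902). PSAT1, an enzyme of serine synthesis, had 121.3, 156.2 and 160.0 FPKM in Y483E, against 131.7 FPKM in Y483F library 1 and at most 101.7 FPKM in Y483F libraries 4 and 5, a log2 difference of 0.64 (SE 0.03, limma adjusted p = 0.00902). SLC1A5, a glutamine transporter, differed by 0.21 (SE 0.04, limma adjusted p = 0.0447). It had 155.2, 153.8 and 159.8 FPKM in Y483E libraries 1, 4 and 5, against 157.0, 133.3 and 137.4 FPKM in Y483F. At number 1 its Y483F library was thus slightly above its Y483E library.

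The other targets of ATF4 and DDIT3 came next, with 7 of 22 called higher and 0 lower by limma and a median of 0.18. PCK2, the mitochondrial form of phosphoenolpyruvate carboxykinase, rose with a log2 difference of 0.90 (SE 0.04, limma adjusted p = 0.00902). EIF4EBP1, a repressor of cap-dependent translation that mTORC1 switches off, had 134.0, 186.8 and 184.9 FPKM in Y483E, against 134.5, 120.5 and 123.5 FPKM in Y483F, a log2 difference of 0.60 (SE 0.03, limma adjusted p = 0.00902). PMAIP1, a cell death gene, had a log2 difference of 0.19 (SE 0.04, limma adjusted p = 0.053).

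Upstream of ATF4, the eIF2 kinases and the eIF2 machinery had a median of 0.03, with 3 of 18 called higher and 0 lower by limma. EIF2S3, a subunit of eIF2, rose by 0.30 (SE 0.03, limma adjusted p = 0.0327) and IMPACT, an inhibitor of the kinase GCN2, by 0.34 (SE 0.04, limma adjusted p = 0.0335). EIF2S2, another subunit, differed by 0.10 (SE 0.04, limma adjusted p = 0.206). Of the other bZIP factors, limma called 3 of 24 higher and 1 lower, with a median of 0.10. JUN, a partner in the AP-1 complex, rose by 0.32 (SE 0.03, limma adjusted p = 0.031), JUND, its relative, by 0.39 (SE 0.05, limma adjusted p = 0.0347), and XBP1, a factor of the unfolded protein response, by 0.37 (SE 0.04, limma adjusted p = 0.0327).

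The chaperones and folding factors driven by XBP1 and ATF6 were mostly slightly lower in Y483E, 14 of 19 by sign. Limma called 1 of 19 higher, XBP1 itself, and 1 lower, and the median was -0.04. MANF, a secreted protein of the endoplasmic reticulum, fell by 0.23 (SE 0.04, limma adjusted p = 0.0466). HSP90B1 and CALR, abundant chaperones of the endoplasmic reticulum, differed by -0.07 (SE 0.03, limma adjusted p = 0.249) and -0.12 (SE 0.03, limma adjusted p = 0.0852).

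Lists for other pathways linked to single members had medians from -0.06 to 0.03, against 0.015 over all genes. Whether these pathways acted on the members was not tested. For mTORC1 control, around DDIT4 and SESN2, the median was 0.03, with 2 of 21 called higher and 2 lower by limma. EIF4EBP1, which is also in the list of other ATF4 and DDIT3 targets, was among those called higher, at 0.60 (SE 0.03, limma adjusted p = 0.00902). WDR24, a subunit of GATOR2, fell by 0.31 (SE 0.05, limma adjusted p = 0.0438), and RRAGA, a Rag GTPase, differed by 0.12 (SE 0.04, limma adjusted p = 0.163). For hypoxia, which can induce DDIT4, the median was 0.02 and limma called 1 of 13 higher, BNIP3L, a mitophagy receptor, at 0.26 (SE 0.05, limma adjusted p = 0.0495). The hypoxia targets ADM, EGLN1 and SLC2A1 differed by -0.31, 0.09 and 0.04, with limma adjusted p of 0.0581, 0.201 and 0.683.

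For p53 targets, since p53 can induce SESN2, the median was -0.06, with 1 of 16 called higher and 1 lower by limma. CDKN1A, a cell cycle inhibitor that is also in the list of other ATF4 and DDIT3 targets, rose by 0.23 (SE 0.04, limma adjusted p = 0.0438). PLK3, a stress-responsive kinase, fell by 0.47 (SE 0.08, limma adjusted p = 0.048). BAX and TNFRSF10B, both of cell death, differed by -0.08 (SE 0.04, limma adjusted p = 0.232) and -0.20 (SE 0.04, limma adjusted p = 0.0521). For immediate early genes, among which ATF3 and PPP1R15A also respond in many cells, the median was -0.03, with 1 of 16 called higher, JUN, and 0 lower by limma. MYC differed by -0.13 (SE 0.03, limma adjusted p = 0.0755) and ZFP36 by -0.30 (SE 0.06, limma adjusted p = 0.052).

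**Figure D3:**
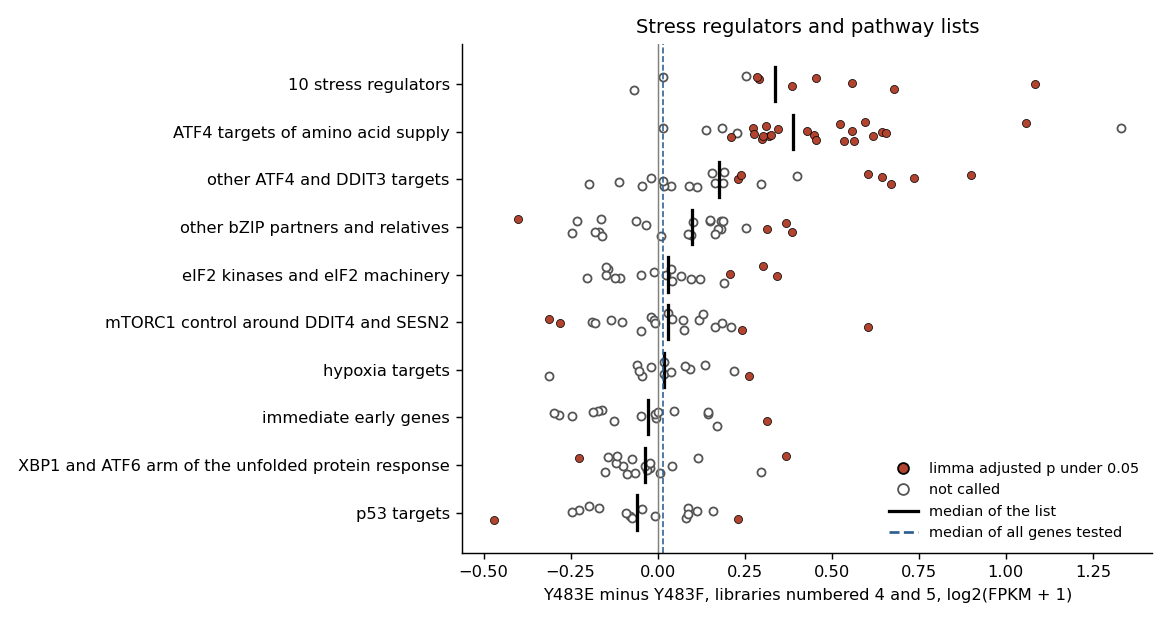
Log2 difference between the lines, Y483E minus Y483F (horizontal axis), in the libraries numbered 4 and 5 for each tested gene (points, filled where the limma adjusted p was under 0.05) of the 10 members and 9 pathway lists (rows), with a bar for each median and a dashed line for the median of all genes, 0.015. The members and the targets of amino acid supply have medians of 0.338 and 0.388, and the next highest list stands at 0.176.

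In all 6 libraries limma called 0 genes of any of these lists, and the median log2 difference was 0.23 for the targets of amino acid supply and 0.11 for the other targets of ATF4 and DDIT3. EdgeR on the libraries numbered 4 and 5 called 24 of 27 targets of amino acid supply higher and 0 lower, and 13 of 26 other targets higher and 1 lower. It called 6 of 26 other bZIP factors higher and 4 lower, and 4 of 22 genes of mTORC1 control higher and 3 lower. Of 16 p53 targets it called 1 higher and 4 lower, and of 18 immediate early genes 1 higher and 3 lower. For the eIF2 list the counts were 3 and 1 of 18, for the XBP1 and ATF6 list 2 and 2 of 19, and for hypoxia 2 and 1 of 14. The lists were written with earlier results of these data known, so their counts are not independent evidence of a direction. Some lists share genes, such as EIF4EBP1, CDKN1A, TNFRSF10B, JUN and XBP1, so their counts are not separate from each other. The share of genes called by each tool in these libraries, given above for the members, is the background for these counts too.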

How the data were processed

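Poly-A RNA of HEK293 cells was sequenced, 3 libraries for each of the lines Y483E and Y483F. The submitters' processing notes name featureCounts 1.5.0-p3, HISAT2 2.0.5 and StringTie 1.3.3b, and also DESeq and DESeq2, without roles. No genome build was given in the sources used. The authors deposited FPKM values for 58735 genes. The authors' deposited comparison of 1652 genes also holds read counts, a normalized signal (counts divided by a size factor), p-values and log2 fold changes (Y483E over Y483F). Of the gene positions, 58690 equal those of GENCODE 29 on GRCh38.

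FPKM multiplied by gene length and by a library total worked out from the listed counts gave whole reads, within 0.01 of a read, for 100% of values above 0, and equalled the listed counts for all 1652 genes. These reads summed to 17204498 to 23284592 per library, and genes with few reads are measured least well. A count of 0 allows 3 reads, for counting error only.

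The test was limma 3.58.1 (eBayes with a trend, R 4.3.3) as a two-sided test on log2(FPKM + 1). Genes averaging at least 1 FPKM in the libraries fitted entered, and p-values were Benjamini-Hochberg adjusted, with a threshold of 0.05, over all genes tested. A pseudocount of 1 understates changes of low genes. It was run on 6 libraries, on those numbered 4 and 5, and as an interaction of line and number 1. EdgeR 4.0.16 (quasi-likelihood, TMM) and DESeq2 1.42.0 were run on the recovered reads. Replicates 1, 2 and 3 are the libraries numbered 1, 4 and 5. The limma, edgeR and DESeq2 fits were tested on simulated data for the sign of known changes. Promoter windows came from RefSeq, in which all 10 members had one.

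The members, the pathway lists and the tests were chosen with earlier results of these data known. The rule named all 10 members, the 5 genes most like ATF4 and the 5 most like the members' mean, and from each list the 2 genes of highest mean FPKM and the 2 of smallest p in the libraries numbered 4 and 5. Some of the genes most like the members' mean are not reported here. Of those named, ASS1, GRINA and ZFP36 were chosen for more detail with their values in view. The alternatives were pseudocounts, filters, scalings, array weights, a batch term, the replicate block and leaving out each library.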

Additional observations from a re-analysis of the deposited data

Results flagged for a closer look

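The difference between the lines was lower at number 1 than at numbers 4 and 5 for the 6 members called by edgeR's interaction of line and number. As log2 values, the line difference at number 1 minus that at numbers 4 and 5 was -1.21 for CHAC1, -0.84 for TRIB3, -0.55 for DDIT4, -0.44 for SESN2, -0.35 for CEBPG and -0.35 for ATF4. These values are a description: the members were selected on the same values by line and number, and each line has 1 library numbered 1. By limma on log2(FPKM + 1), 0 of the 10 members passed in the same comparison, with 7 at an unadjusted p under 0.05, and 1 member passed with no filter, with a filter at a mean of 5 FPKM or without Y483E replicate 2. The cause was not tested.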

How the results depend on the processing

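In the 6 libraries limma called 0 of 12833 genes, edgeR 7 of 15992 and DESeq2 142 of the 11014 with an adjusted p. Limma with array weights called 1888 of 12833 genes, 6 of them members. EdgeR with number 1 as a batch term called 155 of 15992 genes, 1 of them a member, DDIT4. Leaving out each library gave 0 calls by limma and 1 to 1000 by edgeR. EdgeR called 174 of 16374 genes (6 members) without Y483E replicate 1 and 1000 of 16405 (3 members) without Y483F replicate 1. For the libraries numbered 4 and 5, limma called 705 of 12936 genes (7 members). The calls became 0 with no filter, 1227 of 7480 (8 members) with a filter at a mean of 5 FPKM and 1 with no trend. EdgeR called 2454 of 16308 genes (7 members). With no filter, with no trend or without either Y483F library, 0 members were called. For the interaction, 8 calls by limma became 242 (1 member) with no filter, 32 (1 member) with the filter at 5 FPKM, 0 with no trend, 368 (6 members) by edgeR, 111 (3 members) by DESeq2 and 6 to 127 without 1 library (1 member without Y483E replicate 2). The cause was not tested.

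Over all tested genes, the deviations of same-numbered libraries from their line means correlated at 0.056, 0.139 and -0.095. These values are taken over all genes and do not describe single ones. With the replicate block in 6 libraries, the SE went from 0.104 to 0.0439 for ATF3 and from 0.134 to 0.0451 for PPP1R15A. For TRIB3 it went from 0.157 to 0.172. The replicate block gave 0 calls in 6 libraries and 303, 6 of them members, in those numbered 4 and 5. The members' median log2 difference in numbers 4 and 5, 0.338, was 0.357 with a pseudocount of 0.1, 0.316 after quantile normalization, 0.359 by DESeq2 and 0.333 to 0.362 without 1 library. In 6 libraries it was 0.171 to 0.343 by limma and 0.187 to 0.352 by edgeR without 1 library. PPP1R15A alone changed sign when a library was left out, with -0.086 to 0.151 in 6 libraries and -0.038 to 0.066 in numbers 4 and 5. The other 9 members kept their sign under the settings tried, CHAC1 not being in the 6-library fit with the filter at 5 FPKM. Their size in 6 libraries depended on single libraries: DDIT3, at 0.089, was 0.242 without Y483E replicate 1, 0.006 without replicate 2, 0.018 without replicate 3 and 0.053 without Y483F replicate 3. ATF4, TRIB3 and SESN2 were 0.265, 0.482 and 0.451 without Y483E replicate 1 and 0.109, 0.198 and 0.194 without replicate 3, against 0.17, 0.294 and 0.309. ATF3, at 0.219, was 0.142 without Y483E replicate 2, and ATF5, at -0.054, was -0.023 with Y483E replicate 3 left out and -0.021 with Y483F replicate 1 left out. Low read counts limit CHAC1 and DDIT3 most.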
